A study of Rattus norvegicus with 33 samples.

Results

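Complement is the blood and tissue protein cascade that marks cells and microbes for clearance. A set of its genes was followed here in the rat prostate, chosen by name: C1r, C1s, C2, C3, Cfb, Cfd, C3ar1 and C5ar1, which are 8 of 23345 genes tested. Each was read from the non-control probe that carries its name in the scanner files, and where a gene had several probes the brightest one stood for it. In the classical pathway the proteases C1r and C1s, bound to the recognition protein C1q, cleave C4 and C2, whose fragments form an enzyme that cleaves C3. In the alternative pathway factor D (Cfd) cuts factor B (Cfb) on deposited C3b, which makes more of the same C3-cleaving activity. Fragments C3a and C5a attract and activate leukocytes through the receptors C3AR1 and C5AR1. The liver makes most plasma complement, while epithelia, fibroblasts and macrophages make components locally.

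The 33 samples were prostates of male Sprague-Dawley (Hsd:SD) rats, 1 single-colour Agilent array each. As pups they were injected subcutaneously with vehicle or with estradiol benzoate (EB), an ester that releases estradiol slowly, at a dose of 2.5 mg/kg on days 1, 3 and 5 after birth (postnatal days, PND). At PND 90 the animals kept to adulthood received 3 silastic tubes, empty in the control and EB groups, and 2 filled with testosterone plus 1 filled with estradiol in the T+E and EB+T+E groups. The groups were vehicle control (4 arrays) and EB (4 arrays) at PND 30, before any implant. At PND 100 each of the 4 treatments had 3 arrays, and at PND 145 EB had 4 and each other treatment 3. All animals ate a low phytoestrogen chow, so adult control animals differed from EB animals in the neonatal injection and from T+E animals in the content of the implants. The labels give 3 to 4 litters per group and do not tie arrays to litters, so the spread behind each p-value is that among these samples and may be partly technical. Sample labels name whole prostate while the series title names the dorsolateral lobes, and which was taken is not settled here.

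Between 61.5% and 68.9% of 58717 non-control spots per array were well above background, none was saturated, and the number of arrays limits the precision. Products of the dorsolateral prostate (2 of 3 listed genes tested) summed to a log2 level of 5.01 to 7.19 on the adult arrays, and luminal epithelial markers (7 of 7) to 3.62 to 7.02. Both dorsolateral products tested fell with EB+T+E against control at PND 100 and at PND 145. At PND 145 their sums were 5.47 to 5.76 with EB+T+E and 6.76 to 6.98 in control. Several arrays stood apart from their groups in other tissues' markers. Replicate 3 of the PND 100 control and replicate 2 of the PND 145 control had the highest summed seminal vesicle products of their groups (7.60 and 7.84), and the latter also had spermatid markers at 6.02. Each adult comparison with control was also run without these 2 control arrays, here called the reduced fit. Spermatid sums ran from -1.66 to 6.02 in the PND 145 control, with a median of 0.12. They were -5.14 to -2.75 with EB, -4.94 to -3.47 with T+E and -4.14 to -2.78 with EB+T+E at that age. The PND 145 control arrays kept in the reduced fit thus still lay above those groups in spermatid markers. Seminal vesicle sums on the kept controls were 6.59 and 6.42 at PND 100 and 6.34 and 6.43 at PND 145. They were lower on every EB+T+E array, at 3.84, 5.49 and 3.43 and at 4.71, 5.16 and 5.51. The EB arrays of PND 100 were lower too, at 6.13, 5.65 and 5.00. T+E arrays and EB arrays of PND 145 were not all lower. The reduced fit thus did not even out these products. Ventral prostate products (4 tested) varied within groups, with summed log2 levels of 7.46, 5.06 and 3.40 in control, 8.07, 3.56 and 3.79 with EB and 6.94, 7.15 and 8.62 with EB+T+E at PND 100, and 5.79, 6.71 and 8.09 in control and 3.35, 4.25 and 7.73 with EB+T+E at PND 145. The high arrays included EB replicate 1 of PND 100 and EB+T+E replicate 3 of PND 145. These products also differed between groups. With T+E the sums were 7.87 to 8.19 at PND 100, above every control of that age. At PND 145 they were 3.21 to 4.92 with T+E, below every control of that age. The part of the lobe sampled in the complement results was not tested. Hepatocyte markers (4 of 5 tested) stayed at a summed log2 level of -1.62 or lower on the adult arrays, and Alb, albumin, was not well above background in any adult group other than EB+T+E at PND 100. In bulk tissue, fewer cells of a type and less RNA per cell cannot be told apart.

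Each gene was measured with 60-base probes, and the probes used for the 8 genes were well above background on 33 of 33 arrays. Those of the cascade components, receptors aside, that rose most with EB+T+E at PND 145 are shown with the positions given by the array design (rat build rn4), where a start above the end is as the files give it.
C1s (chr4:160736795-160736736): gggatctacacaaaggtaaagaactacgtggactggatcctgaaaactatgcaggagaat
C2 (chr20:4071504-4071563): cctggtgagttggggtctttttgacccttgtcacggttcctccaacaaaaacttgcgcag
C3 (chrUn:64513496-64513437): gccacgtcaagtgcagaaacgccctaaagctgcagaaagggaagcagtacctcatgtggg
Cfb (chr20:4076976-4077119): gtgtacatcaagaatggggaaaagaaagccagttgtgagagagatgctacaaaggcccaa
The C2 and Cfb probes lie near each other on chromosome 20, where these genes are neighbours. The C3 probe was placed on unassigned sequence in that build. Another C1s probe gave a log2 ratio of 1.71, where the one used gave 1.63, for EB against control at PND 100. For C3ar1 the dimmer probes, well above background on 23 and 20 arrays, gave log2 ratios of 0.90 and 2.04 in that comparison, where the brightest gave 1.87. C1r, C2, C3, Cfb, Cfd and C5ar1 had 1 probe each. Levels below are log2 signals relative to the 75th percentile of the same array, so 0 is the level of that percentile and a step of 1 is a factor of 2, and levels of different genes are not compared.

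For all 8 genes the group with the highest mean was one that had received both EB as pups and T+E as adults. At PND 145 each of the 8 rose against control, from 7.73-fold for Cfd to 129-fold for C3, with limma at an adjusted p under 0.05, a rule that called 14.7% of all genes tested as higher in that comparison. The median log2 ratio of the 8 was 3.56 beside -0.24 over all genes, and the EB+T+E and control arrays did not overlap for any of the 8, as was so for 20.7% of all genes on the high side. Within slides 3 and 4, the glass slides that held arrays of both groups, all 8 genes were higher with EB+T+E, by 3.38 to 6.65 and by 1.90 to 7.48. EB+T+E at PND 145 had the highest group mean of C1r, C1s, C2, C3, Cfb and Cfd, and EB+T+E at PND 100 that of C3ar1 and C5ar1. Control at PND 145 had the lowest mean of C1r, C1s, C2, C3, C3ar1 and C5ar1, and EB at PND 30 that of Cfb and Cfd. Neighbouring groups in these orders overlapped, except that every C1s value of the PND 100 control lay above those of the PND 145 control and every C3ar1 value of T+E lay above those of the control at PND 100.

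**Figure D1:**
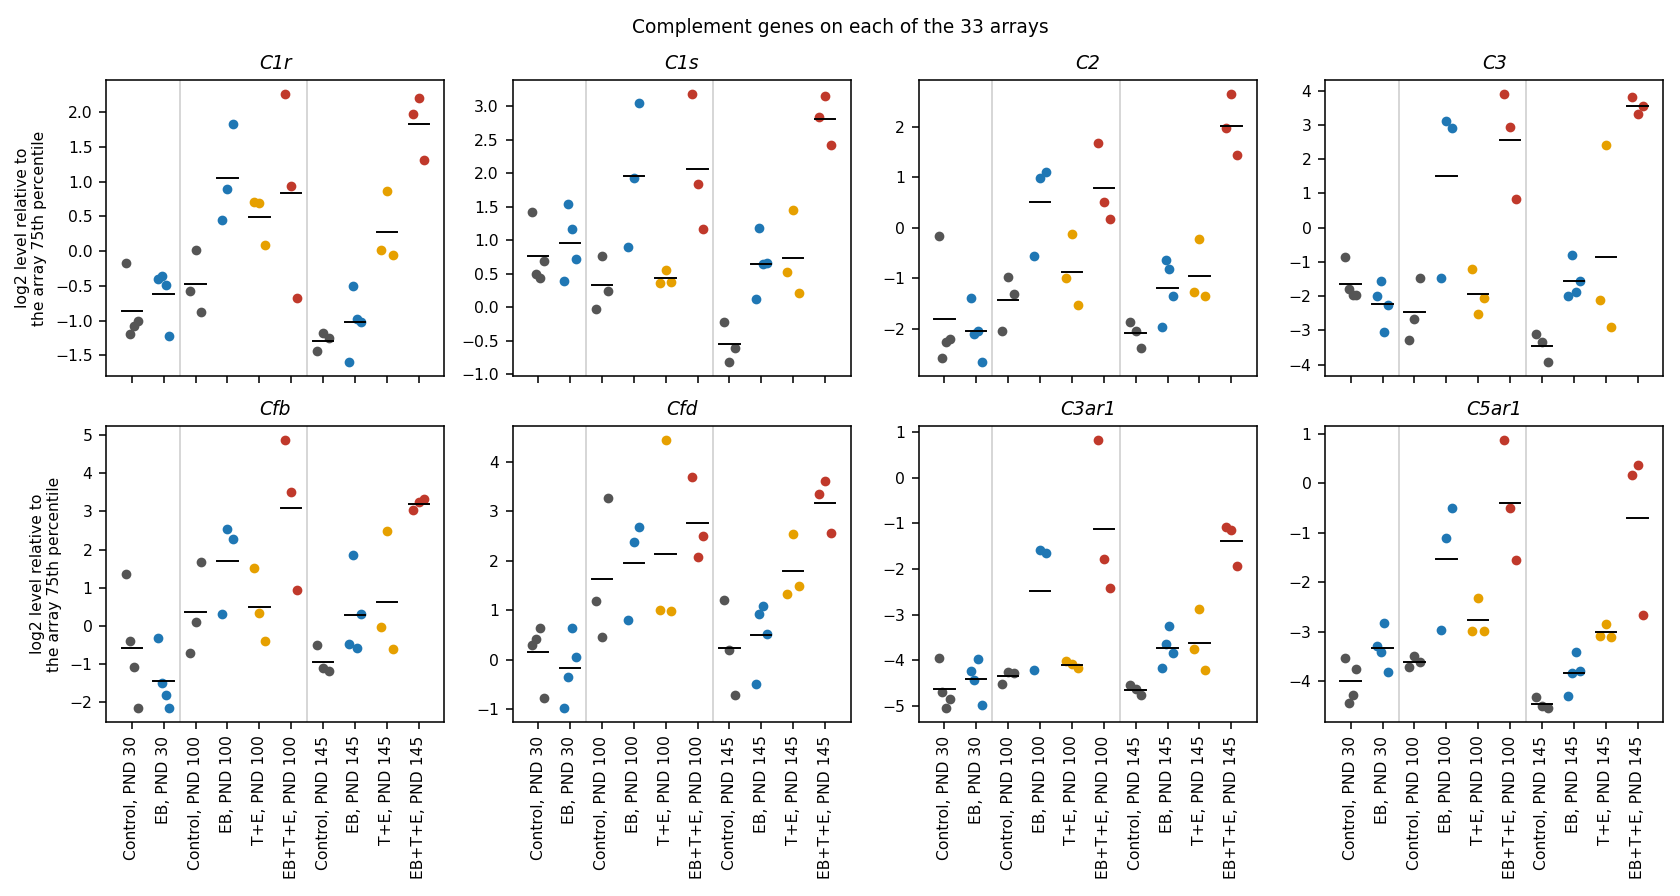
Log2 level of each complement gene relative to the 75th percentile of its array (vertical axis, own scale per gene) in the 10 groups (horizontal axis). Points are arrays, placed in replicate order, and lines are group means. The 3 EB+T+E arrays of PND 145 lie above the 3 control arrays of that age in all 8 panels, and the EB group of PND 100 splits into 1 low and 2 high arrays for C3 and C3ar1.

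C3, the component on which the pathways converge, had the largest ratio of the 8 for EB at PND 100 and for EB+T+E at PND 100 and PND 145. Values are given in the order of the replicate numbers, which is only a naming. At PND 100 its levels were -3.27, -2.66 and -1.46 in control, -1.48, 3.11 and 2.92 with EB, -1.21, -2.51 and -2.05 with T+E and 3.91, 2.94 and 0.85 with EB+T+E. The 3 EB+T+E arrays lay above every control and T+E array, while EB held 1 array within the control range and 2 far above it. C3 rose 32.6-fold with EB+T+E, a log2 ratio of 5.03 ± 1.02 (SE, adjusted p = 0.00284), and 15.7-fold with EB, 3.98 ± 1.02 (SE, adjusted p = 0.0372). At PND 145 the levels were -3.09, -3.34 and -3.93 in control, -2.01, -0.80, -1.88 and -1.57 with EB, -2.10, 2.40 and -2.89 with T+E and 3.81, 3.31 and 3.55 with EB+T+E. The EB+T+E arrays lay within a narrow band above all other arrays of that age, and 1 of the 3 T+E arrays came close to it. The rise with EB+T+E against control was 7.01 ± 1.02 (SE, adjusted p = 1.7e-05). It was 6.42 with normexp background correction. At PND 100 the C3 ratio for EB+T+E was 4.36 without EB+T+E replicate 1 and 5.89 without replicate 3, and that for EB was 5.48, 3.18 and 3.27 without EB replicates 1, 2 and 3 in turn. At PND 30 the levels ran from -1.98 to -0.84 in control and -3.04 to -1.56 with EB, groups that overlapped.

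RefSeq promoter entries (GRCr8) were found for C1r, C3, Cfd and C3ar1, 4 of the 8 genes. The 250 bases before the start of C3, which had the largest ratio of the 8 for EB against control at PND 100, and of Cfd, which had the smallest, are shown in the direction of transcription, both from the minus strand, with motif matches in capitals.
C3 (chr9:2201340-2201589): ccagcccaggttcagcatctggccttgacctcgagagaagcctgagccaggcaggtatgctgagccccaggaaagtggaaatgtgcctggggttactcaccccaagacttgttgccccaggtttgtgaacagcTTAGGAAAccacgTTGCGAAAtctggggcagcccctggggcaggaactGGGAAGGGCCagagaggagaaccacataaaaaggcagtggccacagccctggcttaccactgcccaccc
Cfd (chr7:10465497-10465746): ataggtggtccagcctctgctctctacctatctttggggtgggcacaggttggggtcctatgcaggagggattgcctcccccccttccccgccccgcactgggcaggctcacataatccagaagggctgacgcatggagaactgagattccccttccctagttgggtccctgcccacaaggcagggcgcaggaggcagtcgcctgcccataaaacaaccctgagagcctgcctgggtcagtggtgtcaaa
Searched on both strands, the C3 sequence held 2 matches to the C/EBP motif TTNNGNAA (N is any base), TTAGGAAA from 117 to 110 and TTGCGAAA from 104 to 97 bases before the start, the latter matching on either strand. It also held 1 match to the NF-kB motif, GGGA and CC with any 4 bases between them, from 69 to 60 bases before the start, GGGAAGGGCC. Of 33469 rat promoters of the same length 37.2% held the former motif and 16.4% the latter. C1r had 2 matches to the C/EBP motif. Cfd and C3ar1 had no match to these or to the other motifs searched, and no entry of the 4 matched the estrogen response element (GGTCA and TGACC with any 3 bases between), the androgen receptor motif AGAACA, the STAT site TTCNNNGAA, the interferon site (GAAA and GAAA with any 2 bases between), the ETS motif GAGGAAGT or the TATA box TATAAA, which 0.0239%, 17.5%, 7.67%, 3.41%, 2.04% and 12.9% of promoters held. A match is a run of letters, not a measured binding site.

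The proteases of the classical pathway, C1r and C1s, both rose with EB+T+E at PND 145. C1s, which cleaves C4 and C2, lay at -0.22, -0.82 and -0.61 in the PND 145 control and 2.84, 3.15 and 2.42 with EB+T+E, and at PND 100 at -0.03, 0.76 and 0.24 in control, 0.90, 1.93 and 3.05 with EB and 3.19, 1.84 and 1.16 with EB+T+E. Neither the EB nor the EB+T+E arrays overlapped the controls of their age. C1s rose with EB+T+E at PND 145 by 3.36 ± 0.46 (SE, adjusted p = 8.79e-06) and at PND 100 by 1.74 ± 0.46 (SE, adjusted p = 0.0147), and the EB ratio at PND 100, 1.63 ± 0.46 (SE, adjusted p = 0.051), missed the threshold. C1r, which activates C1s, lay at -1.44, -1.18 and -1.25 in the PND 145 control and 1.98, 2.20 and 1.31 with EB+T+E, a rise of 3.12 ± 0.48 (SE, adjusted p = 3.07e-05). At PND 100 it lay at -0.57, 0.02 and -0.88 in control, 0.45, 0.90 and 1.83 with EB, 0.70, 0.69 and 0.09 with T+E and 2.26, 0.93 and -0.67 with EB+T+E. Replicate 3 of EB+T+E lay among the controls, and EB, T+E and EB+T+E gave log2 ratios of 1.53, 0.97 and 1.32, none past the threshold (adjusted p = 0.068, 0.607 and 0.0686).

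C2 and Cfb, neighbouring genes whose products carry the catalytic site of the classical and alternative C3 convertases, rose together with EB+T+E at PND 145. C2 lay at -1.87, -2.04 and -2.37 in control and 1.98, 2.66 and 1.43 with EB+T+E, a rise of 4.12 ± 0.55 (SE, adjusted p = 7.74e-06), or 17.3-fold. Cfb lay at -0.51, -1.11 and -1.17 and 3.04, 3.25 and 3.33, a rise of 4.14 ± 0.93 (SE, adjusted p = 0.0014), or 17.6-fold. Of the pair, C2 passed the test with EB+T+E at PND 100 and Cfb did not, and the difference between the 2 genes was not tested. C2 lay at -2.04, -0.97 and -1.30 in control, -0.55, 0.98 and 1.10 with EB and 1.69, 0.51 and 0.17 with EB+T+E, and the rise with EB+T+E was 2.23 ± 0.55 (SE, adjusted p = 0.0102), 4.68-fold. EB against control gave C2 a ratio of 1.95 ± 0.55 (SE, adjusted p = 0.0522), which missed the threshold although the arrays did not overlap. Cfb lay at -0.70, 0.11 and 1.66 in control, 0.31, 2.54 and 2.28 with EB and 4.87, 3.50 and 0.93 with EB+T+E. Control replicate 3 was higher than 1 EB and 1 EB+T+E array, and the Cfb ratios were 1.36 ± 0.93 (SE, adjusted p = 0.399) with EB and 2.74 ± 0.93 (SE, adjusted p = 0.0504) with EB+T+E.

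Cfd encodes adipsin, the protease that cuts factor B and a known product of fat cells, and it passed the test against control with EB+T+E at PND 145 alone. It lay at 1.18, 0.46 and 3.27 in the PND 100 control, 1.00, 4.44 and 0.98 with T+E and 3.70, 2.08 and 2.50 with EB+T+E. The single high arrays were control replicate 3, T+E replicate 2 and EB+T+E replicate 1. Adipocyte markers (8 of 8 tested, Cfd not among them) summed to log2 levels of -0.44, -1.63 and 2.85 in that control group, -1.23, 3.30 and -0.74 with T+E and 2.12, 0.04 and -0.73 with EB+T+E, so the same 3 arrays were the highest in fat cell markers. With EB the Cfd levels were 0.80, 2.38 and 2.67 and the adipocyte sums -1.14, -1.74 and -1.06, so replicates 2 and 3 were high in Cfd without being high in these markers. No Cfd ratio against control passed at PND 100, with 1.12 ± 0.77 (SE, adjusted p = 0.357) for EB+T+E and 0.50 for T+E, which was -0.65 without T+E replicate 2. Without control replicate 3 they were 1.94 and 1.32, and without EB+T+E replicate 1 the former was 0.65. At PND 145 Cfd lay at 1.21, 0.19 and -0.73 in control, 1.32, 2.55 and 1.49 with T+E and 3.35, 3.62 and 2.56 with EB+T+E, and rose with EB+T+E by 2.95 ± 0.77 (SE, adjusted p = 0.00479). The adipocyte sums there were -0.03, -2.78 and -2.73 in control and 0.60, -0.40 and -1.32 with EB+T+E, 1 of 8 adipocyte markers rose, and their part in the Cfd result was not tested.

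The receptors C3ar1 and C5ar1, which myeloid cells use to sense C3a and C5a, rose with EB+T+E at both adult ages. C3ar1 lay at -4.52, -4.25 and -4.28 in the PND 100 control, -4.22, -1.58 and -1.66 with EB and 0.83, -1.77 and -2.41 with EB+T+E, and at -4.53, -4.63 and -4.76 and -1.07, -1.15 and -1.93 in control and EB+T+E at PND 145. The rise with EB+T+E was 3.23 ± 0.60 (SE, adjusted p = 0.00182) at PND 100 and 3.26 ± 0.60 (SE, adjusted p = 0.00022) at PND 145, 9.41-fold and 9.57-fold. EB replicate 1 lay only slightly above the controls, replicates 2 and 3 were far above, and the EB ratio was 1.87 ± 0.60 (SE, adjusted p = 0.0742). C5ar1 lay at -3.72, -3.50 and -3.61 in the PND 100 control, -2.96, -1.11 and -0.50 with EB and 0.88, -0.51 and -1.56 with EB+T+E, and at -4.32, -4.50 and -4.56 and 0.18, 0.37 and -2.66 in control and EB+T+E at PND 145. All EB+T+E arrays lay above all controls of their age, with replicate 3 of PND 145 well below the others. The C5ar1 rises were 3.22 ± 0.60 (SE, adjusted p = 0.0019) and 3.76 ± 0.60 (SE, adjusted p = 5.2e-05), and the EB ratio at PND 100 was 2.09 ± 0.60 (SE, adjusted p = 0.056).

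Against control at PND 100, C3, C2, C1s, C3ar1 and C5ar1, 5 of the 8, rose with EB+T+E, where 5.41% of all genes tested were called higher, and the median ratio was 2.48 beside -0.09 over all genes. With EB alone C3 rose, 1 of the 8, where 1.81% were called higher. The other 7 also had values above 0, with a median over the 8 of 1.75 beside -0.06, and 6 of the 8 had an unadjusted p under 0.05, as had 22.2% of all genes in either direction. For 5 of the 8 (C1r, C1s, C2, C3ar1 and C5ar1) the EB arrays all lay above the controls, as for 11.5% of all genes. The comparisons share the control arrays. The EB count moved with the arrays used: 6 of 8 (all but Cfb and Cfd) were called without EB replicate 1, and 0 without EB replicate 2, EB replicate 3 or any 1 control array, and in the reduced fit (C3 4.48, adjusted p = 0.0835). For EB+T+E, 3 were called without control replicate 1 or without EB+T+E replicate 1 and 7 without EB+T+E replicate 3. A fit of just the 2 groups compared called 0 of 8 in either comparison, and with slide as a block 6 and 7 were called for EB and EB+T+E. Within slides 1 and 2, which held both groups, C3 differed by 4.56 and 6.19 for EB and by 5.36 and 6.21 for EB+T+E, and each of the 8 values was above 0 except that of Cfd for EB on slide 1 (-0.89). EB replicate 1 and EB+T+E replicate 3 were on slide 4, which held no PND 100 control, so these within-slide values leave them out. The slide block adjusts them by slide differences estimated over all groups. Without EB+T+E replicate 1 the PND 100 rises of C3ar1 and C5ar1 were 2.26 and 2.58, and without replicate 3 that of C3ar1 was 3.88. At PND 145 the rise of C3ar1 was 2.40 with normexp background correction, and that of C5ar1 was 4.74 without EB+T+E replicate 3.

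EB replicate 1 at PND 100 was also the array of its group with a neutrophil sum in the control range. Neutrophil markers (S100a8, S100a9, Cxcr2, Csf3r and Mmp8, 5 of 8 listed genes tested) summed to -6.54, -6.55 and -5.13 on the control arrays, -6.19, 0.15 and 0.09 with EB and 1.87, 0.51 and -1.51 with EB+T+E. S100a8, Cxcr2, Csf3r and Mmp8 were not well above background on any control array of PND 100 or PND 145. A marker was tested only if well above background on 3 or more of the 33 arrays. Mmp8 was so only on arrays of EB at PND 100 and of both EB+T+E groups, and Csf3r only there and with T+E at PND 145. These genes entered the test through groups where they were high, so the counts of neutrophil markers that rose are not independent of that filter. Macrophage markers (9 of 10 tested) summed to 1.95, 1.95 and 2.23 in control, 2.83, 3.66 and 3.48 with EB and 5.43, 3.82 and 3.91 with EB+T+E. With EB+T+E at PND 100, 5 of 5 neutrophil and 7 of 9 macrophage markers rose, and 3 of 7 luminal epithelial markers fell. EB+T+E replicate 1, highest of its group in C1r, C1s, C2, C3, Cfb, Cfd, C3ar1 and C5ar1, had luminal markers at 3.62 against 6.09 and 6.30 on the other two. At PND 145 the neutrophil sums were -6.72 to -5.50 in control and -0.09 to 1.23 with EB+T+E, the macrophage sums 1.85 to 2.24 and 4.11 to 4.47, and the luminal sums 6.69 to 6.89 and 4.83 to 6.17. There, too, 5 of 5 neutrophil and 7 of 9 macrophage markers rose. Fibroblast markers (8 of 8 tested) summed to 3.74 to 4.13 in control and 5.49 to 5.81 with EB+T+E at PND 145, where 7 of 8 rose. T and NK cell markers (9 tested) summed to -0.41, -0.49 and -0.23 in control, 0.03, 1.95 and 3.08 with EB and 1.66, 1.39 and 0.95 with EB+T+E at PND 100, where 4 of 9 rose with EB and 3 of 9 with EB+T+E. At PND 145 they summed to -0.91 to -0.10 in control and 2.32 to 4.20 with EB+T+E, and 8 of 9 rose. EB replicate 1 of PND 100 was again the low array of its group in T and NK cell markers. It was so too in endothelial markers (6 tested), at 1.93, 2.95 and 3.81 with EB. It was not the low array in fibroblast markers (5.90, 5.35 and 6.31) or B and plasma cell markers (-0.55, -1.06 and 4.57). Endothelial markers summed to 1.10 to 1.60 in control and 2.45 to 3.68 with EB+T+E at PND 145, where 4 of 6 rose. The part of these cell types in the complement results was not tested.

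**Figure D2:**
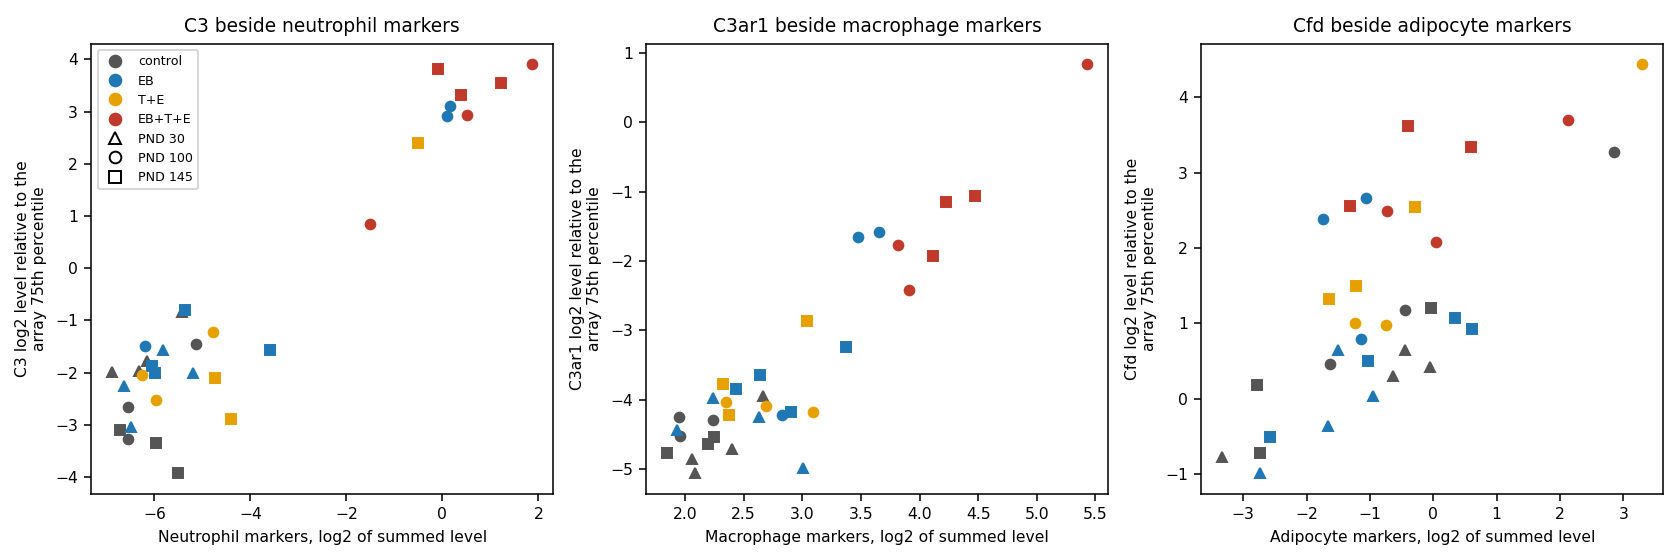
Level of C3, C3ar1 and Cfd on each array (vertical axes, log2 relative to the array's 75th percentile) against the log2 summed level of neutrophil, macrophage and adipocyte markers (horizontal axes). Colours are treatments and shapes ages. The arrays high in C3 are those with neutrophil sums of -1.51 or more, and EB replicate 1 of PND 100, with C3 at -1.48, lies among the controls at -6.19.

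With T+E and no EB, none of the 8 genes passed the test against control. At PND 100, 0 of 8 passed (0 also at an unadjusted p under 0.05, with limma, a level that 8.33% of all genes reached, and 0 with the authors' deposited table or with slide as a block), where 0.141% of all genes were called higher. All 8 values there were above 0, from 0.11 for C1s to 0.97 for C1r, and the median was 0.52 beside -0.04. At PND 145, 0 of 8 passed, 5 had an unadjusted p under 0.05 (all genes 9.85%), 0.287% of all genes were called higher, and all 8 values were above 0 with a median of 1.50 beside -0.04. The T+E arrays did not overlap the controls for 7 of 8, Cfb being the exception, as for 9.12% of all genes. T+E replicate 2 was the highest of the 3 for all 8 genes: its C3 was 2.40 and its Cfb 2.49, against -2.10 and -2.89 for C3 and -0.03 and -0.60 for Cfb on the others. Without it the C3 ratio went from 2.59 to 0.96 and that of Cfb from 1.55 to 0.62. Within slides 1, 3 and 4 the C3 differences were 1.00, 5.74 and 1.04. The same array had neutrophil markers at -0.50, beside -4.74 and -4.41 on the other two. C1r lay at 0.02, 0.86 and -0.06 on the 3 T+E arrays, all above control, with a ratio of 1.56 ± 0.48 (SE, adjusted p = 0.175).

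EB without T+E gave no call at PND 30 or PND 145. At PND 30, 0 of 8 passed (0 at an unadjusted p under 0.05, all genes 11.9%, and 0 with slide as a block), where 0.00857% of all genes were called higher, and the 8 values split into 4 above and 4 below 0 around a median of -0.03 beside -0.14. At PND 145, 0 of 8 passed, 1 (C1s) had an unadjusted p under 0.05 (all genes 15.2%), and 0.193% of all genes were called higher. All 8 values lay above 0 with a median of 0.91 beside -0.01. C1s, at 0.12, 1.18, 0.64 and 0.66, did not overlap the controls and had the smallest p, 1.20 ± 0.43 (SE, adjusted p = 0.183). C3, C3ar1 and C5ar1 did not overlap them either, which made 4 of 8, as for 8.81% of all genes on the high side. C3 had a ratio of 1.89 ± 0.95 (SE, adjusted p = 0.346), and C3ar1 and C5ar1 had 0.92 and 0.62. The dimmer C3ar1 probes gave 0.31 and 0.32 in this comparison. The EB effect itself differed between ages for 0 of 8 genes, both for PND 100 against PND 30 (3 at an unadjusted p under 0.05, all genes 8.40%) and for PND 145 against PND 100 (0, all genes 4.30%). For C3 the difference between PND 100 and PND 30 was 4.56 ± 1.35 (SE, adjusted p = 0.293), and 6.05 (adjusted p = 0.00813) without EB replicate 1 of PND 100. At the adjusted threshold 0.0214% and 0% of all genes were higher in these 2 tests.

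**Figure D3:**
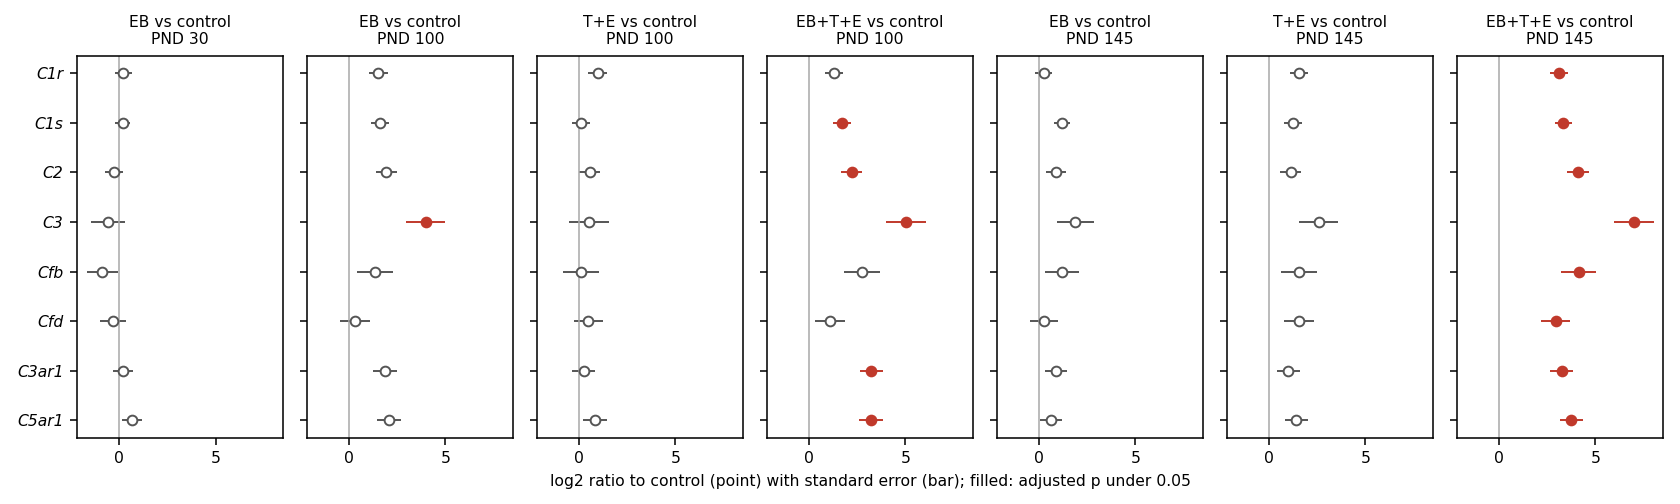
Log2 ratio to the control group of the same age (horizontal axis, point) with its standard error (bar) for the 8 complement genes in the 7 comparisons with control. Filled points passed an adjusted p of 0.05 in limma: 1 of 8 for EB and 5 of 8 for EB+T+E at PND 100, and 8 of 8 for EB+T+E at PND 145.

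EB+T+E was also set against each treatment alone. At PND 145, 8 of 8 genes were higher than with EB alone (background 10.6%, median 2.89 beside -0.22), from 4.45-fold for C1s to 34.7-fold for C3, and 7 of 8 were higher than with T+E alone (background 9.69%, median 2.27 beside -0.16), Cfd being the exception at 1.39 ± 0.77 (SE, adjusted p = 0.204). C2 had the smallest p against T+E, 2.97 ± 0.55 (SE, adjusted p = 0.000512), and C3 differed by 4.42 ± 1.02 (SE, adjusted p = 0.00298). Without T+E replicates 1, 2 and 3 in turn the C3 difference was 3.80, 6.05 and 3.41, and that of Cfb, 2.59, was 3.52 without replicate 2 and 1.98 without replicate 3. Without EB+T+E replicate 3 the C5ar1 differences from T+E and EB, 2.31 and 3.14, were 3.29 and 4.12. The count against T+E fell to 4 without EB+T+E replicate 1, EB+T+E replicate 2 or T+E replicate 3. At PND 100, C3, C1s, C3ar1 and C5ar1, 4 of 8, were higher than with T+E alone (background 2.66%, median 2.02 beside -0.10), with C3 at 4.49 ± 1.02 (SE, adjusted p = 0.0156). Without EB+T+E replicate 1 the C3, C3ar1 and C5ar1 differences were 3.82, 2.00 and 1.74, and without replicate 3 those of C3 and C3ar1 were 5.35 and 3.62. None of the 4 calls held without EB+T+E replicate 1 or without T+E replicate 1, 1 held without T+E replicate 2 and 2 without T+E replicate 3. Against EB alone 0 of 8 passed at PND 100 (1 at an unadjusted p under 0.05, all genes 15.7%; background 0.711%, median 0.93 beside -0.05). That gene was C3ar1, 1.37 ± 0.60 (SE, adjusted p = 0.259). Whether EB and T+E together gave more than the sum of both on the log2 scale was tested as an interaction. It passed for 0 of 8 genes at PND 100 (0 at an unadjusted p under 0.05, all genes 8.63%; background 0%) and 0 of 8 at PND 145 (1 at an unadjusted p under 0.05, all genes 13.5%; background 0.638%). The values at PND 145 were all above 0, with C2 at 2.07 ± 0.76 (SE, adjusted p = 0.201) and C3 at 2.53 ± 1.39 (SE, adjusted p = 0.433). C5ar1, at 1.70, reached 2.67 (adjusted p = 0.0365) without EB+T+E replicate 3.

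In control glands no age difference of the 8 genes passed the test. Between PND 30 and PND 100, 0 of 8 passed (1 at an unadjusted p under 0.05, all genes 13.9%; background 0.767% higher), with a median of 0.37 beside 0.03. That gene was Cfd, 1.49 ± 0.72 (SE, adjusted p = 0.354). Between PND 100 and PND 145, 0 of 8 passed (0 at an unadjusted p under 0.05, all genes 2.48%; background 0% lower), while all 8 values were below 0, from -0.29 for C3ar1 to -1.41 for Cfd. C1r, C1s, C3ar1 and C5ar1 did not overlap between the 2 control groups, as was so on the low side for 4.35% of all genes, with the PND 145 values the lower.

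The wider complement system moved in the same comparisons. Of 51 other complement genes listed by role, 37 were tested. With EB+T+E at PND 145, 23 rose and 2 fell (background 14.7% higher and 20.6% lower, median 2.48). With EB+T+E at PND 100, 17 rose and 1 fell (background 5.41% higher and 7.20% lower, median 1.42). With EB at PND 100, 8 rose and 0 fell (background 1.81% higher, median 1.28). With EB at PND 30 and PND 145 and with T+E at PND 100 and PND 145, 0 of 37 passed in limma. At an unadjusted limma p under 0.05 there were 1, 5, 3 and 11, where all genes gave 11.9%, 15.2%, 8.33% and 9.85%. In a fit of the 2 groups alone 1 of 37 passed with T+E at PND 100. Among recognition proteins 6 of 8 rose with EB+T+E at either age, including the chains of C1q, which carries C1r and C1s: C1qa, C1qb and C1qc rose by 3.72, 3.54 and 3.39 at PND 145. Fcnb, a ficolin of myeloid cells, rose by 5.56 ± 0.82 (SE, adjusted p = 2.11e-05). C4a and C4b, the substrates of C1s, rose by 4.41 and 4.53 at PND 145 and by 2.96 and 2.66 with EB at PND 100. Their transcripts are nearly identical, so the split between them is uncertain. C5, the source of C5a, did not pass, at -0.81 ± 1.37 (SE, adjusted p = 0.671).

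Of the terminal components, C6 and C7 rose at PND 145, by 4.32 and 3.00, while C8g, a chain of C8, fell by 1.41 at PND 145 and by 1.81 at PND 100. Of 9 regulators in fluid 5 rose at PND 145. Among them were Cfp (properdin, which stabilises the alternative convertase), Serping1 (the inhibitor of C1r and C1s), Vtn and Cfi (the protease that inactivates C3b), with ratios of 3.64, 2.61, 2.37 and 2.61. Of 5 membrane regulators 1 rose, Susd4 (1.91), and 1 fell, Cd59b, an inhibitor of the membrane attack complex, at -1.27 ± 0.30 (SE, adjusted p = 0.00213). Cd55 and Cd46, which limit convertases on host cells, gave -1.19 ± 1.38 (SE, adjusted p = 0.528) and 0.52 ± 0.50 (SE, adjusted p = 0.437). Receptors rose in 6 of 7 cases, with Itgb2 and Itgam, the subunits of complement receptor CR3, at 4.76 and 4.29. Cr2, a complement receptor of B cells, rose by 4.14 ± 0.89 (SE, adjusted p = 0.00095) at PND 145, where 7 of 8 B and plasma cell markers rose and their sums were 5.03, 5.01 and 3.15 with EB+T+E and -2.86 to -2.52 in control, and their part in it was not tested. Of these markers Mzb1 was well above background only on arrays of EB at PND 100 and EB+T+E at PND 145. It thus passed the background filter through groups where it was high. With EB at PND 100 the 8 that rose were C1qb, C4a, C4b, C7, Serping1, Itgam, Itgb2 and Cd93, a count of 1 in the reduced fit, 19 without EB replicate 1, 15 with slide as a block, 3 with normexp background correction and 0 in a fit of those 2 groups alone. It was 0 without control replicate 1 or EB replicate 3, 1 without control replicate 3 and 3 without control replicate 2 or EB replicate 2. The count of 17 at PND 100 became 11 in the reduced fit, between 8 and 19 when 1 array was left out, and 0 in the fit of just the 2 groups.

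**Figure D4:**
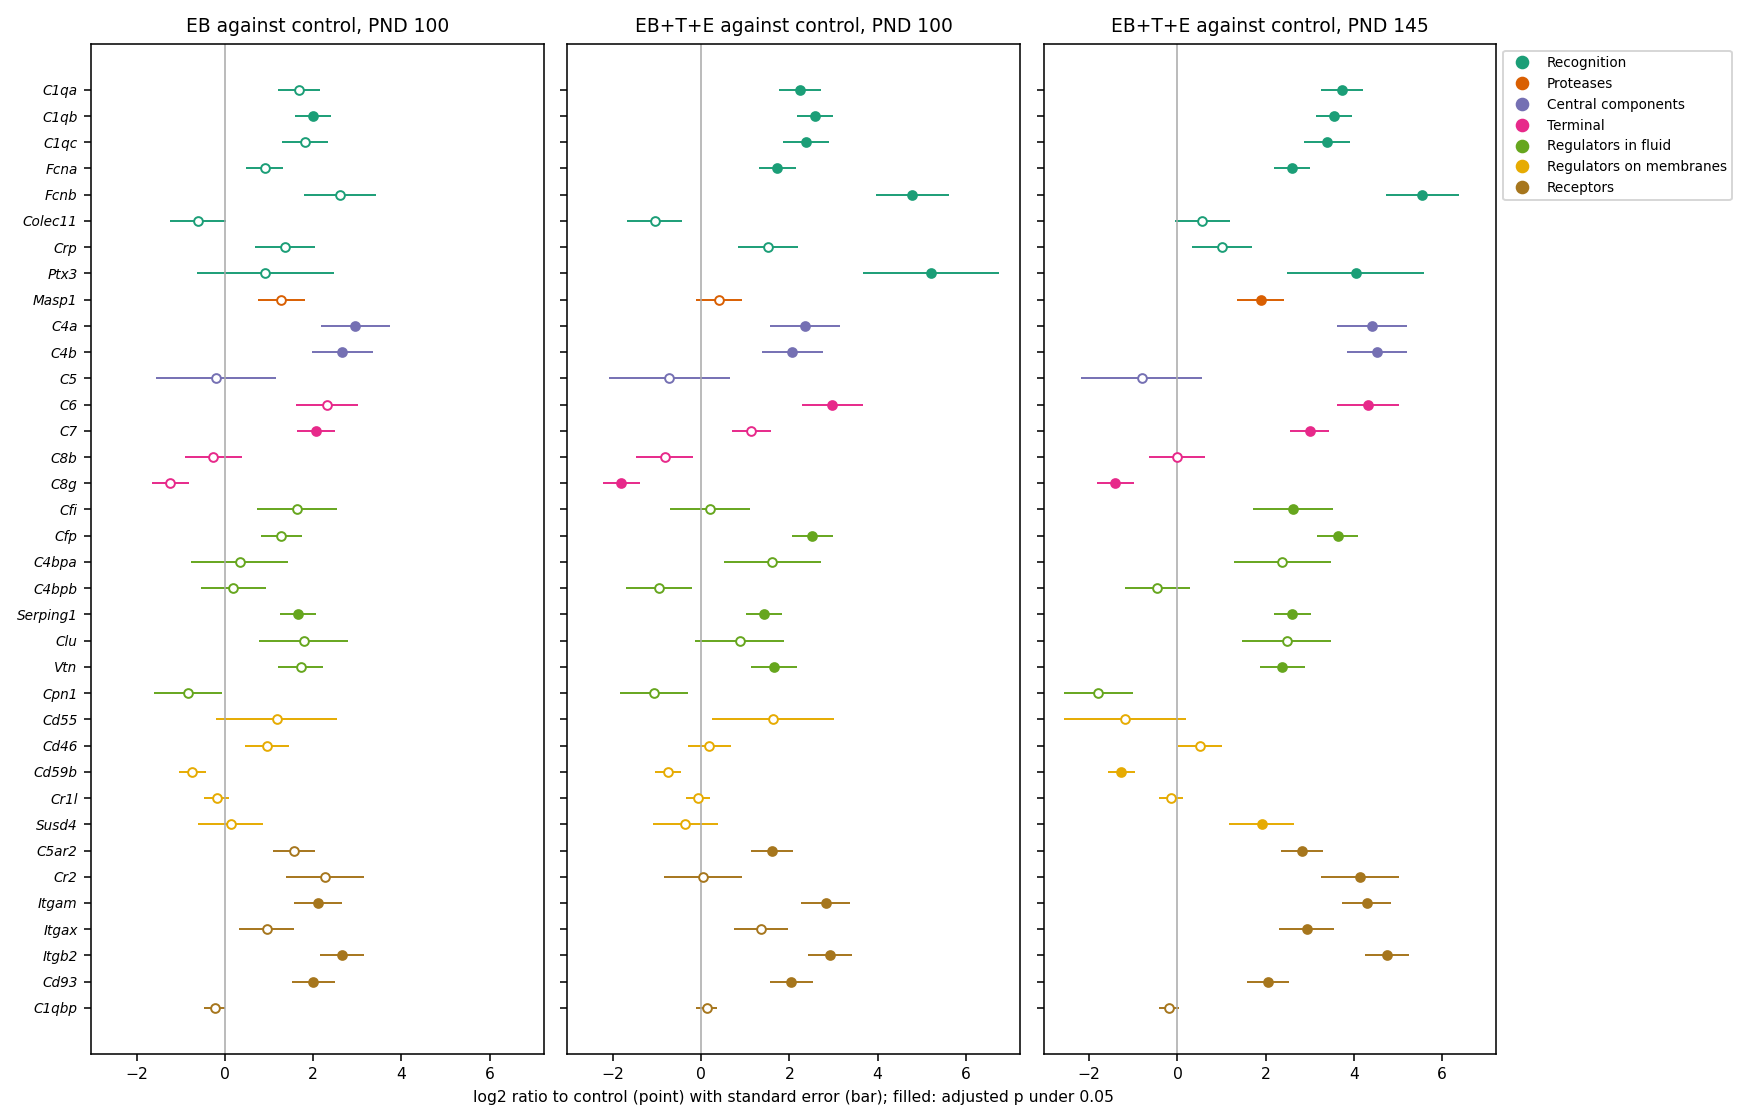
Log2 ratio to control (horizontal axes, point) with its standard error (bar) for other complement genes, coloured by role, for EB at PND 100 and EB+T+E at PND 100 and PND 145. Filled points passed an adjusted p of 0.05. Most points lie above 0 at PND 145, and C8g lies below 0 in all 3 panels.

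Among the genes outside the complement lists whose levels followed the mean of the 8 most closely over the 33 arrays were Cd68, Igsf6, Pstpip1, Ccl6 and Tyrobp. Cd68, also 1 of the macrophage markers above, had a Pearson r of 0.98 and a Spearman rho of 0.95, and Tyrobp had 0.97 and 0.91. For single members the closest genes included Igsf6 and Il1b for C3 (r = 0.96 each), Fcgr1a and Clec4a3 for C3ar1 (0.98 each), Ctss and Cd68 for C2 (0.96 each), Clec10a and Apobec1 for C5ar1 (0.95 each) and Ripk3 for Cfb (0.90). Sulf2 and Adcy7 followed C1r (0.95 each), Scpep1 and Arhgef2 followed C1s (0.96 and 0.95), and Gpx3 and Siglec10 followed Cfd (0.84 and 0.82), the member with the loosest match. These are descriptions over arrays that share groups, slides and cell content.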

How the data were processed

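Total RNA (500 ng, RIN of 8.0 or above, per the labels' protocols) was labelled with Cy3 and read on 8 x 60K rat arrays. Per the file headers, spots were extracted with Agilent Feature Extraction 12.0.0.7 (protocol GE1_1200_Jun14, design 074036, build rn4), which the submitters' processing notes also name. The deposited values are intensities, background-subtracted and detrended by that software. They were set to log2 minus log2 of each array's 75th percentile (1694 to 4737). Spots marked as outliers, 413 to 969 an array, were dropped and repeated spots averaged. Of 45598 probes 30542 cleared the software's background flag on 3 or more of the 33 arrays, which gave 23345 genes. The authors' deposited table has intensities of the same arrays on a linear scale, not centred, and every array has a 75th percentile of 619.357 to 619.517 and a median of 30.8 to 49.9. Its log values correlated with the scanner's at 0.999982 or more.

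A group-means model of the 10 groups was fitted in limma 3.58.1 (R 4.3.3, version 1.17.8 of data.table; trended and robust variance), which shares 1 estimate of the spread, with Benjamini-Hochberg adjustment over all genes within each of 17 comparisons at 0.05. The members, lists and tests were chosen with earlier results of these data known. Named were the 8 members, called complement genes (up to 4 per role with the smallest p) and the genes most like the members, while C5, Cd55, Cd46, Cfi and Cr2 were named after their values were seen. Some genes chosen by this rule are not reported here. Summed marker levels are log2 of the sum of the linear values of a list's tested genes. Slides 1 to 4 held 8 arrays of mixed groups and slide 5 a single array. The alternatives are given in the closing section. The fit was also run on simulated data with independent normal noise and, per gene, the same spread in all 10 groups. In the data the SD of C3 ran from 0.25 with EB+T+E to 2.85 with T+E at PND 145. The simulation therefore cannot check the shared estimate of the spread. Python 3.11.15 with pandas 2.3.3 and matplotlib 3.10.9 served for reading and drawing.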

Additional observations from a re-analysis of the deposited data

Results flagged for a closer look

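Within the groups of 4 arrays, 2 arrays stood far from the rest of their group in a complement gene, where 24 sets (8 genes in 3 groups) were examined and chance gives about 1 in 20, or 1.2. C2 was at -0.16 on replicate 1 of the PND 30 control, its highest array, and at -2.20 on the next. C1r was at -1.22 on replicate 4 of EB at PND 30, its lowest array, and at -0.49 on the next. Neither gene was called in EB against control at PND 30.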

How the results depend on the processing

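At PND 145 the 8 calls of EB+T+E over control and their direction held under each alternative: normexp background correction, quantile scaling, the authors' deposited table, no filter on dim probes, a filter of 17 arrays, the mean of all probes, slide or replicate number as a block, a fit of the groups compared, each array left out, and the reduced fit, which was chosen after the data were seen. The 8 calls against EB at PND 145 ranged from 6 to 8 with arrays left out. For EB against control at PND 100 the count of 1 became 0 with normexp, with no filter, in the fit of the groups compared and in the reduced fit, 2 with the filter of 17 arrays and 6 with slide as a block, and ran from 0 to 6 with arrays left out. At PND 100 the EB+T+E count against control (5) became 0 in the fit of the groups compared and ran from 3 to 7 with arrays left out, and that against T+E (4) became 0 and ran from 0 to 6. At PND 145 the count against T+E (7) became 4 in the fit of the groups compared and ran from 4 to 7. In that comparison the Cfb call held in 6 of 15 alternatives. It was lost with normexp, the authors' deposited table and no filter, among others. The C1s call against T+E at PND 100 held in 5 of 15. That call was lost with normexp, quantile scaling, no filter and the mean of all probes, among others. The interaction at PND 145 and the difference in the EB effect between PND 100 and PND 30 ran from 0 to 1. The causes of these changes were not tested, and a fit of the groups compared has fewer arrays. No value reversed its sign past the threshold. Replicate numbers did not pair the arrays (correlations of same-numbered deviations -0.27 to 0.19). With them as a replicate block, 6 genes were called with EB+T+E over control at PND 100 (Cfb added, adjusted p = 0.0475) and 3 against T+E (C1s lost), and no other count of members changed. In the slide block, slide 5 held 1 array, EB replicate 4 of PND 145, which that fit cannot use. The number of arrays limits the precision, and the 8 genes were well above background on all 33 arrays. Calls at PND 100, and that of Cfb against T+E at PND 145, changed with the background correction as given above.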
